A study of Mus musculus with 6 samples.

Results

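The genes described here are those of the high-affinity IgE receptor, the IL-33 receptor ST2 and the kinases and adaptors that act next to them: Fcer1a, Ms4a2, Fcer1g, Il1rl1, Lyn, Syk, Lat, Lat2, Btk and Plcg2. They were taken as the entries whose RefSeq accession maps to 1 of these 10 genes, and each gene had 1 entry, 10 of 23146 in all. RNA was measured in 6 libraries of EML cells, a mouse haematopoietic progenitor line, in which the series asked what loss and gain of KAI1, the tetraspanin encoded by Cd82, do to mRNA levels. The groups were a KAI1 knockdown (n = 2) with its knockdown control (n = 2), and a KAI1 overexpression (n = 1) with its overexpression control (n = 1). All cells were kept in IMDM with 20% FBS and stem cell factor at 200 ng/ml, and the labels give bone marrow as the tissue, basophil as the cell type and BDF1 as the strain for every library. The labels do not say how KAI1 was lowered or raised, or whether a line is 1 clone. Values are the authors' RPKM, a read count divided by transcript length and sequencing depth, so that levels of different genes can be set side by side.

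Mast cells and basophils carry the IgE receptor as an alpha chain that binds IgE (Fcer1a), a beta chain that amplifies the signal (Ms4a2) and a pair of gamma chains (Fcer1g) that the receptor shares with several Fc receptors for IgG. When antigen crosslinks the receptor, the Src family kinase Lyn phosphorylates the tyrosine motifs of the beta and gamma chains, Syk docks on the gamma chain, and the adaptors LAT and LAT2 are phosphorylated in turn, which brings in phospholipase C gamma and the Tec family kinase Btk and leads to calcium release and degranulation. ST2, encoded by Il1rl1, is the receptor for the alarmin IL-33. It pairs with the accessory protein of Il1rap and signals through MyD88.

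The start regions of Fcer1a, Ms4a2 and Il1rl1 are shown because these receptor genes differed most between libraries among the genes at the cell surface, and because GATA factors and the ETS factor PU.1 are known to bind the promoter of the human IgE receptor alpha chain gene. Each window runs from 250 bases before to 50 bases after a RefSeq start on GRCm38.p6 and is written along the gene's strand. Capitals mark 2 sets of letters, searched on both strands: the GATA letters, which are GATA preceded by A or T and followed by A or G, and the ETS letters GAGGAA. Matches on the other strand appear as their reverse complement, and the sets share no position in these windows. The first is Fcer1a at chr1:173227180-173227479 (minus strand), the second Ms4a2 at chr19:11623670-11623969 (minus strand), and the third the more distal of 2 annotated Il1rl1 starts at chr1:40429320-40429619 (plus strand).
Fcer1a: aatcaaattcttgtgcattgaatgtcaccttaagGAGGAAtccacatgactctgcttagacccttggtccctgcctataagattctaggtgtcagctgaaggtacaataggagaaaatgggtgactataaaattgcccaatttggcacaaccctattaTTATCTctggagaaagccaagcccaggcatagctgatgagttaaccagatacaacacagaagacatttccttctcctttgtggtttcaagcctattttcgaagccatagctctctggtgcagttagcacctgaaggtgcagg
Ms4a2: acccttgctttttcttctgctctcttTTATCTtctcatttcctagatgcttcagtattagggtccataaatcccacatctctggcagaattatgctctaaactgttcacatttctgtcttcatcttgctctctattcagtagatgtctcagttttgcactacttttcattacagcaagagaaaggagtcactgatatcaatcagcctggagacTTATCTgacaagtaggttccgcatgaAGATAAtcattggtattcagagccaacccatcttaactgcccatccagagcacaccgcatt
Il1rl1, distal start: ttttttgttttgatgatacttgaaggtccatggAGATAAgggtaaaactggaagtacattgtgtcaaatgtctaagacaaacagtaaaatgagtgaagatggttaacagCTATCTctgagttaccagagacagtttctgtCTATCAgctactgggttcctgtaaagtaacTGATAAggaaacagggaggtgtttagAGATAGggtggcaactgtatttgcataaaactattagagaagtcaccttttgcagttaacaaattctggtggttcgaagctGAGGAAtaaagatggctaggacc

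Fcer1a held 1 GATA match, 92 bases before the start, and 1 ETS match, 216 bases before it. Ms4a2 held 3 GATA matches, which begin 224, 37 and 11 bases before the start, and 0 ETS matches. The distal Il1rl1 window held 5 GATA matches and 1 ETS match, while the other Il1rl1 window held 1 and 0. Of 32851 windows of this length, 29.8% held a GATA match, 28.3% an ETS match and 8.48% both, so a single match is common. The share of windows with several GATA matches was not counted, so several matches are not read as unusual. Of the remaining members, the Plcg2 window held 1 GATA match, those of Lat and Btk 1 ETS match each, that of Fcer1g neither, and the 2 windows of Syk held both in 1 and neither in the other. These are matches of letters and not measured binding, and any part of a GATA factor in the levels of these genes was not tested. Gata2, which encodes a GATA factor of progenitors and mast cells, stood at 74.3 and 128 RPKM in the KAI1 knockdown and 235 and 91.0 RPKM in its controls, and at 161 RPKM in the KAI1 overexpression and 112 RPKM in its control.

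The libraries did not stand equally close, which touches every comparison below. Depth, estimated from the steps between low values, was about 12300000 and 18600000 reads in the KAI1 knockdown, 18200000 and 9480000 reads in its controls, 18700000 reads in the KAI1 overexpression and 24800000 reads in its control. Cd82 itself stood at 7.65 and 6.91 RPKM in the KAI1 knockdown against 43.9 and 13.8 RPKM in its controls, and at 15.2 RPKM in the KAI1 overexpression against 11.9 RPKM in its control. Knockdown control replicate 1 lay at least 2-fold above control replicate 2 in 12.8% and at least 2-fold below it in 8.56% of 10113 entries. These are the entries whose mean in the knockdown arm reached 1 RPKM. Of the 10 genes, 5 lay at least 2-fold above and 0 below. Fcer1a, 1 of the 5, passed that filter through control replicate 1 alone, so its place in this count is no support. The mast cell marker list, of which 9 of 10 genes were matched, summed to 77359 RPKM in knockdown control replicate 1, 21450 RPKM in the KAI1 overexpression and between 5945 and 15905 RPKM in the other 4 libraries, with 0 of the 9 listed at 0 in any library. The sum of erythroid markers, of which 6 of 7 were matched, ran the other way, at 76.5 and 649 RPKM in those 2 libraries against 2140 to 2723 RPKM elsewhere. Those 2 libraries were the lowest for 5 of the 6. The exception, Epor, was highest in knockdown control replicate 1, at 15.6 RPKM, and lowest in the KAI1 overexpression, at 2.27 RPKM. The basophil protease Mcpt8, a defining marker of the labelled cell type, was present in every library, from 116 to 3908 RPKM, whereas Prss34, another basophil protease, was below 5 RPKM in every library. The 5 basophil markers summed to 3967 RPKM in the KAI1 overexpression and between 131 and 515 RPKM in the other 5 libraries, and Mcpt8 made up most of the sum in the overexpression. Cd200r3, Il4 and Il3ra, the rest of that list, were instead highest in knockdown control replicate 1, at 54.6, 78.5 and 17.2 RPKM, with 10.3, 28.8 and 15.3 RPKM in the KAI1 overexpression. B cell markers and T and NK cell markers summed to at most 1.17 RPKM in any library. In bulk RNA a lower level can mean fewer cells of a type or less RNA per cell, and the 2 cannot be told apart.

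The gene of the IgE-binding chain, Fcer1a (chr1:175151402-175157360 on mm9, as are the loci that follow), was nearly absent from most libraries. It was listed at 0 and stood at 0.289 RPKM in the KAI1 knockdown, against 24.2 and 0 RPKM in its controls. In the overexpression arm it stood at 7.41 RPKM in the KAI1 overexpression and 0.261 RPKM in its control. Because RPKM of a gene climbs in steps of 1 read, reads could be recovered for Fcer1a, which gave 0 and 5 reads in the knockdown, 410 and 0 reads in its controls, 129 reads in the overexpression and 6 reads in its control. Knockdown control replicate 1 and the KAI1 overexpression were therefore the only libraries with more than a few reads. At the estimated depths a value listed at 0 allows up to 0.244 RPKM in KAI1 knockdown replicate 1 and 0.317 RPKM in knockdown control replicate 2, taking 3 reads as the limit. Against that limit, control replicate 1 lay at least 76.3-fold above control replicate 2.

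**Figure D1:**
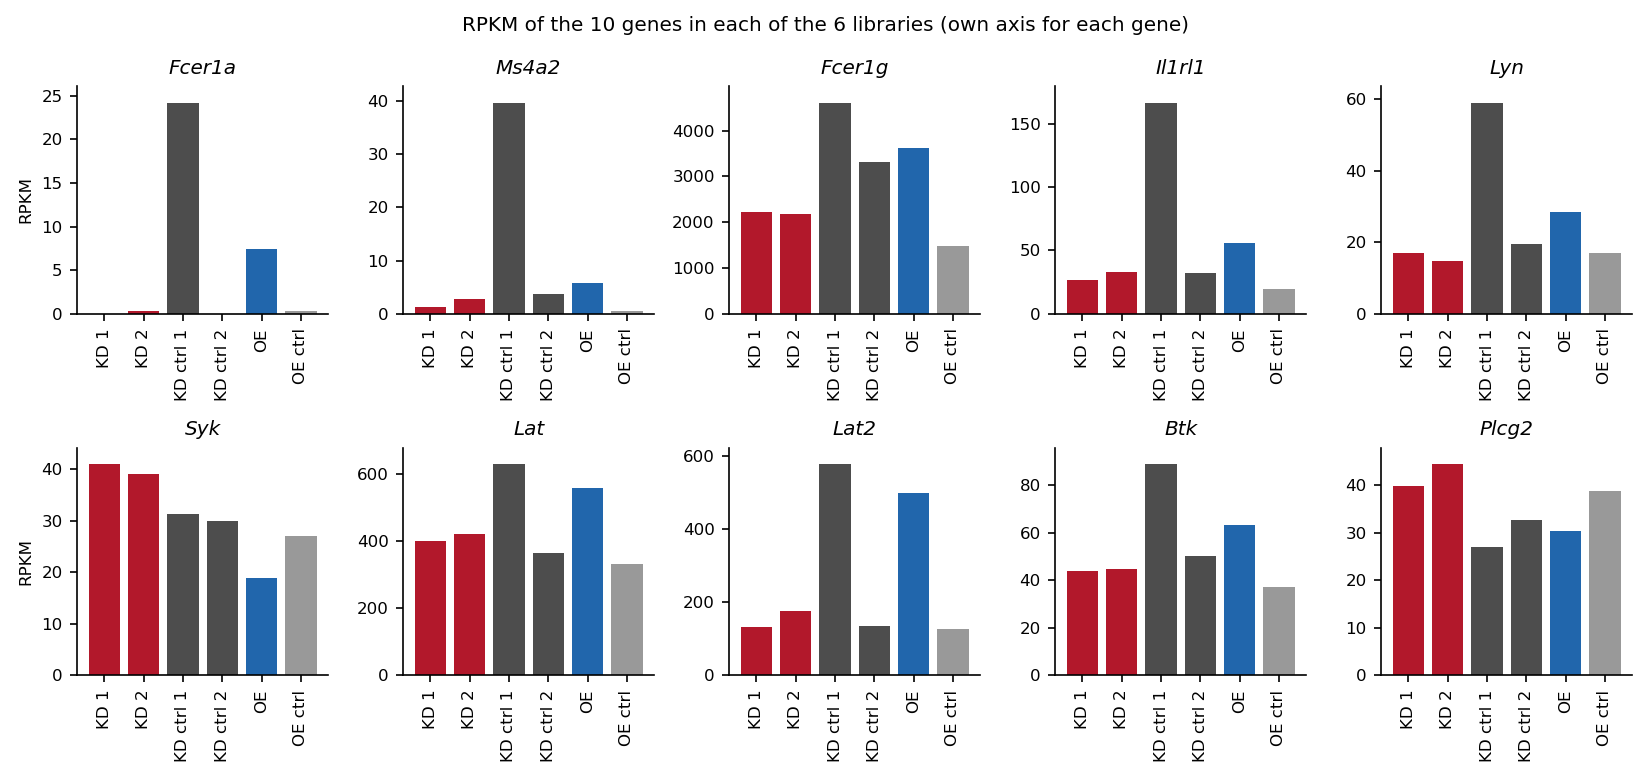
RPKM (vertical axis, from 0, separate for each gene) of the 10 genes in KAI1 knockdown replicates 1 and 2 (KD 1, KD 2), their controls (KD ctrl 1, KD ctrl 2), the KAI1 overexpression (OE) and its control (OE ctrl); each bar is 1 library. In 8 of the 10 genes knockdown control replicate 1 was the highest library and the KAI1 overexpression the second, the exceptions being Syk and Plcg2. Fcer1a, among the 8, was near or at 0 in every other library.

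Ms4a2 (chr19:11691683-11698133), the beta chain, was measured in every library. It stood at 1.25 and 2.71 RPKM in the KAI1 knockdown against 39.6 and 3.71 RPKM in its controls, and at 5.86 RPKM in the KAI1 overexpression against 0.443 RPKM in its control. The knockdown libraries were the lower pair in this arm, although control replicate 2, with 32 reads, was much closer to the knockdown libraries, with 14 and 46 reads, than to control replicate 1, with 658 reads. The overexpression value rested on 100 reads and that of its control on 10 reads. The steps of Ms4a2 fix its reads only up to a common multiple, which was set from the estimated depth and the transcript length.

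Fcer1g (chr1:173159703-173164480), the shared gamma chain, was the most abundant member by far and made up between 71.4% and 83.2% of the summed RPKM of the 10 genes. It stood at 2223 and 2173 RPKM in the KAI1 knockdown against 4608 and 3309 RPKM in its controls, and at 3623 RPKM in the KAI1 overexpression against 1488 RPKM in its control. The groups did not overlap, with the knockdown lower, and the knockdown libraries differed little from each other. Among entries that are not small RNAs, Fcer1g ranked between 32nd, in knockdown control replicate 1, and 118th, in the overexpression control. Per length, its RNA exceeded that of Ms4a2 116-fold in knockdown control replicate 1, 618-fold in the KAI1 overexpression and between 802-fold and 3359-fold in the other 4 libraries. The gamma chain RNA was thus present at high level in libraries in which RNA of the IgE-binding chain was near or at 0.

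Il1rl1 (chr1:40496494-40522259), which encodes ST2, stood at 26.8 and 32.6 RPKM in the KAI1 knockdown against 166 and 32.3 RPKM in its controls, and at 56.0 RPKM in the KAI1 overexpression against 19.7 RPKM in its control. The knockdown and control groups overlapped, since control replicate 2 lay between the knockdown libraries. The entry merges 2 accessions of the gene, so transcripts for membrane-bound and soluble ST2 cannot be told apart. Its co-receptor gene Il1rap was low in most libraries, at 0.248 and 0.272 RPKM in the KAI1 knockdown against 8.40 and 0.0641 RPKM in its controls, and at 1.73 RPKM in the KAI1 overexpression, while it was listed at 0 in the overexpression control. The gene of the ligand, Il33, was listed at 0 in all 6 libraries.

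The receptor-proximal kinases did not share 1 pattern. Lyn (chr4:3605268-3718759), which starts the signal, stood at 16.9 and 14.8 RPKM in the KAI1 knockdown against 59.0 and 19.6 RPKM in its controls, and at 28.3 RPKM in the KAI1 overexpression against 16.9 RPKM in its control. In Lyn the knockdown libraries were both lower than either control. Syk (chr13:52678806-52744161), which docks on the phosphorylated gamma chain, stood at 40.9 and 39.1 RPKM in the KAI1 knockdown against 31.3 and 30.01 RPKM in its controls, and at 18.9 RPKM in the KAI1 overexpression against 27.0 RPKM in its control. For Syk the knockdown libraries were the higher pair, and the overexpression library was the lowest of the 6. The 2 controls of the knockdown differed by 1.04-fold in Syk, whereas they differed by 3.01-fold in Lyn. Part of the Lyn locus overlaps the entry 6330407A03Rik, and the sources do not state whether reads were assigned by strand, so reads of the 2 entries may be mixed.

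Btk (chrX:131076880-131117679), the Tec family kinase that acts on phospholipase C gamma, stood at 43.7 and 44.9 RPKM in the KAI1 knockdown against 88.8 and 50.2 RPKM in its controls, and at 63.2 RPKM in the KAI1 overexpression against 37.2 RPKM in its control. Neither knockdown library reached the lower control. Plcg2 (chr8:120022191-120159042), 1 of the phospholipase C gamma genes, stood at 39.9 and 44.5 RPKM in the KAI1 knockdown against 27.0 and 32.7 RPKM in its controls, and at 30.4 RPKM in the KAI1 overexpression against 38.8 RPKM in its control. Here the knockdown libraries exceeded either control, and knockdown control replicate 1 and the KAI1 overexpression were the 2 lowest libraries. The other phospholipase C gamma gene, Plcg1, stood at 16.4 and 26.7 RPKM in the KAI1 knockdown against 40.3 and 15.3 RPKM in its controls, and at 24.97 RPKM in the KAI1 overexpression against 13.1 RPKM in its control. It was named after its values were seen. Plcg1 was highest where Plcg2 was lowest, in knockdown control replicate 1.

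Of the adaptors, Lat (chr7:133507342-133513048), which assembles the phospholipase complex, stood at 401 and 422 RPKM in the KAI1 knockdown against 629 and 366 RPKM in its controls, and at 559 RPKM in the KAI1 overexpression against 331 RPKM in its control. Lat2 (chr5:135076135-135090893), a related adaptor known to modulate the IgE response in both directions, stood at 131 and 177 RPKM in the KAI1 knockdown against 578 and 136 RPKM in its controls, and at 500 RPKM in the KAI1 overexpression against 125 RPKM in its control. In neither gene did the knockdown and control groups separate. Lat2 was the adaptor with the wider range across the 6 libraries.

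Ratios of 2 genes within a library do not depend on how the libraries were scaled. Lat exceeded Lat2 3.05-fold and 2.39-fold in the KAI1 knockdown, and 1.09-fold and 2.70-fold in its controls. The same ratio was 1.12 in the KAI1 overexpression and 2.64 in its control, so that the 2 adaptors were near parity in knockdown control replicate 1 and in the overexpression library and not elsewhere. Syk over Lyn was 2.41 and 2.64 in the KAI1 knockdown against 0.531 and 1.53 in its controls, and 0.666 in the KAI1 overexpression against 1.60 in its control. The knockdown pair had the higher ratio, and Lyn exceeded Syk in knockdown control replicate 1 and the KAI1 overexpression only. Btk over Plcg2 was 1.10 and 1.01 in the KAI1 knockdown against 3.29 and 1.54 in its controls, and 2.08 in the KAI1 overexpression against 0.960 in its control. Those pairs were picked after the levels were seen and carry no test.

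**Figure D2:**
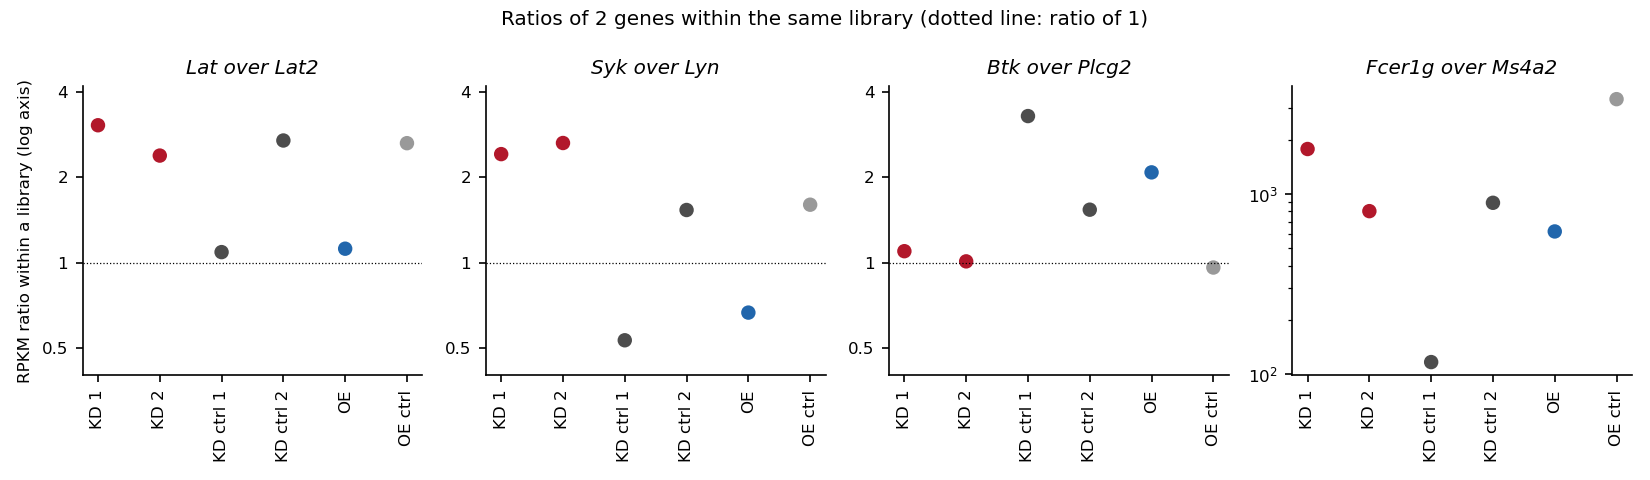
Ratio of the RPKM of 2 genes within each library (vertical axis, log scale) for Lat over Lat2, Syk over Lyn, Btk over Plcg2 and Fcer1g over Ms4a2; KD, KAI1 knockdown; OE, KAI1 overexpression; ctrl, their controls; each point is 1 library and the dotted line marks a ratio of 1. Knockdown control replicate 1 and the KAI1 overexpression stand together in the first pair of ratios, with Lat over Lat2 at 1.09 and 1.12 and Syk over Lyn at 0.531 and 0.666.

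Set in order over the 6 libraries, 8 of the 10 genes (Fcer1a, Ms4a2, Fcer1g, Il1rl1, Lyn, Lat, Lat2 and Btk) were highest in knockdown control replicate 1 and second in the KAI1 overexpression, an order found in 11.5% of the 10112 entries whose mean over the 6 libraries reached 1 RPKM. Knockdown control replicate 1 was the highest library, whatever came second, in the same 8 genes and in 29.9% of entries. Fcer1a passed the filter on low values only through knockdown control replicate 1 and the KAI1 overexpression. Its place in both counts is therefore no support. Plcg2 had these 2 libraries as its lowest, as did 15.3% of entries. The overexpression control was the lowest library in Ms4a2, Fcer1g, Il1rl1, Lat, Lat2 and Btk. The share of all entries with that library lowest was not counted, so this is not read as a trait of these genes. In Fcer1a that library, at 6 reads, was followed only by the 2 libraries listed at 0. The order of the 8 genes was noticed in the data and is a description. Cd82 itself was also highest in knockdown control replicate 1, at 43.9 RPKM, and second in the KAI1 overexpression, at 15.2 RPKM. The mast cell marker sum had the same 2 libraries at the top, and the erythroid marker sum had them at the bottom, and their part in the order of the 10 genes was not tested.

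For the KAI1 knockdown, which asks what loss of KAI1 does, differences are given as log2(RPKM + 1) in the knockdown minus that in its controls, a scale that understates changes of low genes. Limma called 0 of the 10 genes, and 0.0297% of the 10113 entries tested, at an adjusted p below 0.05. At an unadjusted p below 0.05 it called 0 of the 10 genes and 3.32% of all entries. The knockdown pair was lower than either control in 4 genes (Ms4a2, Fcer1g, Lyn and Btk), where 17% of all entries did so, and higher than either control in 2 (Syk and Plcg2), where 21.5% of all entries did so. The median difference over the 10 genes was -0.85, against 0.03 over all entries tested. The 3 entries called were all small RNAs. All 10 genes passed the filter on low values, and Fcer1a passed it through control replicate 1 alone, so its place in the median is no support.

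Fcer1g had the smallest unadjusted p of the 10, with means of 2198 ± 35.1 RPKM in the KAI1 knockdown and 3958 ± 918 RPKM in its controls (SD, n = 2 each) and a log2 difference of -0.83 (SE 0.33, limma adjusted p = 0.83). Ms4a2 averaged 1.98 ± 1.03 RPKM in the knockdown and 21.7 ± 25.4 RPKM in its controls, a log2 difference of -2.26 (SE 1.10, limma adjusted p = 0.83). For Fcer1a and Ms4a2 the SD of the controls exceeded their mean, and for Il1rl1, at 99.4 ± 94.9 RPKM, it nearly did. Plcg2 averaged 42.2 ± 3.23 RPKM in the knockdown and 29.8 ± 4.04 RPKM in its controls, a log2 difference of 0.49 (SE 0.24, limma adjusted p = 0.83). Syk averaged 40.0 ± 1.27 RPKM in the knockdown and 30.7 ± 0.939 RPKM in its controls, a log2 difference of 0.37 (SE 0.22, limma adjusted p = 0.83). The remaining log2 differences were -2.14 for Fcer1a, -1.29 for Il1rl1, -1.06 for Lyn, -0.87 for Lat2, -0.58 for Btk and -0.22 for Lat, with adjusted p from 0.83 to 0.90. With 2 libraries on each side, no exact permutation test of a single gene can go below a two-sided p of 0.333. The summed mast cell markers stood at 8357 and 7396 RPKM in the KAI1 knockdown against 77359 and 15905 RPKM in its controls. The knockdown pair was lower than either control in 6 of the 9 markers, where 17% of all entries did so. The part of these markers in the differences of the 10 genes was not tested.

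Which control was used set the size of most of these differences. Without control replicate 1 the log2 difference was -0.59 for Fcer1g, -0.70 for Ms4a2, -0.29 for Lyn, -0.18 for Btk and -0.12 for Il1rl1, and it stood at 0.18 for Fcer1a, 0.17 for Lat and 0.17 for Lat2, where the sign turned; no member passed limma's test there, with adjusted p between 0.406 and 0.795. Without control replicate 2 it was -1.07, -3.81, -1.83, -0.99 and -2.45 in the same 5 genes, -4.47 for Fcer1a and -1.91 for Lat2, and limma called these 7 genes (adjusted p from 0.0169 to 0.0496, where the alternatives for these genes reached up to 1.0), against 10.3% of all entries. That fit has 1 control library, whose spread is taken to be that of the knockdown pair, and for Fcer1a that library is also the one that let the gene through the filter, so its call there is no support. In the same fit 8 of the 10 genes lay below the control, where 41.3% of all entries did so. Fcer1a was among these 8, and its place there is no support either. Syk and Plcg2 were the members that moved least, at 0.40 and 0.36 without control replicate 1 and 0.34 and 0.62 without control replicate 2, in each case short of the threshold (adjusted p between 0.103 and 0.442, up to 1.0 over all alternatives).

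**Figure D3:**
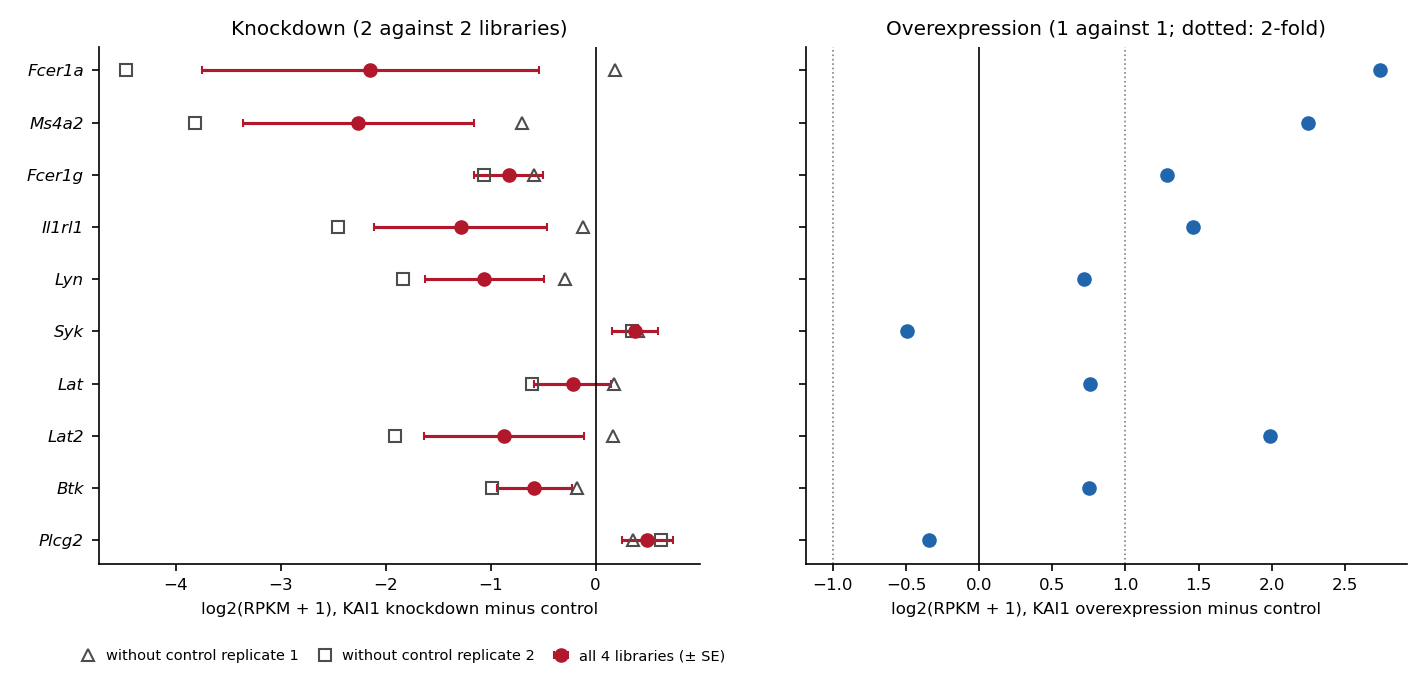
Difference in log2(RPKM + 1) of each gene (horizontal axis) for the KAI1 knockdown minus its control (left; filled points with SE from limma, open symbols without 1 control library) and the KAI1 overexpression minus its control (right; 1 library each, no error). Without control replicate 1 the knockdown differences lie between -0.70 and 0.40, while 5 genes exceed the dotted 2-fold line in the overexpression.

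The KAI1 overexpression asks what gain of KAI1 does, and Cd82 RNA stood at 15.2 RPKM there against 11.9 RPKM in its control. In that library 5 of the 10 genes (Fcer1a, Ms4a2, Fcer1g, Il1rl1 and Lat2) were at least 2-fold higher than in the control on the RPKM + 1 scale. That held for 4.92% of the 9936 entries compared. Of the 5, Fcer1a and Ms4a2 stood at 0.261 and 0.443 RPKM in the control. They passed the filter on low values through the overexpression library alone, so their place in this count is no support. By the same size rule 0 of the 10 were at least 2-fold lower, against 5.21% of entries. The median log2 ratio was 1.02 over the 10 genes and 0.01 over all entries. Fcer1a and Ms4a2 enter that median too, at 2.74 and 2.25, and their place in it is no support either. The log2 ratios of the other genes ran from -0.50 for Syk to 1.99 for Lat2. With 1 library on each side there is no test and no replicate check.

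All 3 chains of the IgE receptor were higher in the KAI1 overexpression library. Fcer1a was 28.4-fold higher by RPKM (exact 95% interval 12.7 to 79.1, from 129 against 6 reads) and 6.67-fold higher on the RPKM + 1 scale. Ms4a2 was 13.2-fold higher by RPKM (interval 6.92 to 28.5, from 100 against 10 reads) and 4.75-fold higher on the RPKM + 1 scale. Intervals here cover counting error only, with reads taken as independent. For Ms4a2 the interval also rests on the common multiple set from the estimated depth and transcript length. Fcer1g was 2.43-fold higher, Il1rl1 2.76-fold and Lat2 3.96-fold on the RPKM + 1 scale. Lat, Btk and Lyn were 1.69-fold, 1.68-fold and 1.64-fold higher on that scale and stayed under the size rule. Syk and Plcg2 ran the other way, with log2 ratios of -0.50 and -0.34. The summed mast cell markers were 21450 RPKM in the KAI1 overexpression and 5945 RPKM in its control. Of the 9 markers, 6 were at least 2-fold higher, against 4.92% of entries. The part of these markers in the result was not tested.

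Genes further along the same pathways were taken from lists chosen by function. Of 23 genes that signal downstream of the IgE receptor, 20 were tested in the knockdown and limma called 0 (0 at an unadjusted p below 0.05). The knockdown pair was lower than either control in 3, Prkcb among them, where 17% of all entries did so. It was higher than either control in 1 (Grb2), where 21.5% of all entries did so, and the median difference was -0.36. In the overexpression 2 of 19 (Prkcb and the phosphoinositide 3-kinase gene Pik3cd) were at least 2-fold higher, against 4.92% of entries. By that rule 0 were lower, against 5.21% of entries, and the median was 0.59. Here Prkcb passed the filter on low values through the overexpression library alone. Prkcb, a protein kinase C isoform, had the largest difference of this list in both arms. It stood at 0.836 and 1.03 RPKM in the KAI1 knockdown against 28.6 and 1.37 RPKM in its controls (log2 difference -2.12, SE 1.26, limma adjusted p = 0.83), and at 6.50 RPKM in the KAI1 overexpression against 0.265 RPKM in its control, 5.93-fold higher on the RPKM + 1 scale. Like Ms4a2, it was high in knockdown control replicate 1 and intermediate in the overexpression library.

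Among 17 inhibitors of mast cell activation, all 17 were tested and limma called 0 (0 at an unadjusted p below 0.05). The knockdown pair was lower than either control in 4 (Fcgr2b, Cd300lf, Milr1 and Lilrb4a), where 17% of all entries did so. It was higher than either control in 2 (Cbl and Pag1), where 21.5% of all entries did so. The median difference was -0.28. In the overexpression 5 of the 17 (Lilrb4a, Cd300lf, Pirb, Inpp5d and Fcgr2b) were at least 2-fold higher, against 4.92% of entries. By that rule 0 were lower, against 5.21% of entries, and the median was 0.15. Cd300lf passed the filter on low values through the overexpression library alone, and in the knockdown through control replicate 1 alone. Its place in these counts is therefore no support. Lilrb4a, an inhibitory receptor of mast cells, was the member that differed most in both arms. It stood at 5.19 and 4.52 RPKM in the KAI1 knockdown against 124 and 6.83 RPKM in its controls (log2 difference -2.42, SE 1.37, limma adjusted p = 0.83), and at 180 RPKM in the KAI1 overexpression against 3.42 RPKM in its control, 40.8-fold higher on the RPKM + 1 scale. Lilrb4a has a near-identical neighbouring copy, and its values are uncertain to the extent that reads were divided between the copies. Cd300lf, another inhibitory receptor, stood at 0.604 and 0.627 RPKM in the KAI1 knockdown against 28.3 and 1.18 RPKM in its controls, and at 17.5 RPKM in the KAI1 overexpression against 0.661 RPKM in its control. Inpp5d, which encodes the lipid phosphatase SHIP1, stood at 41.6 and 52.3 RPKM in the KAI1 knockdown against 138 and 43.2 RPKM in its controls, and at 79.95 RPKM in the KAI1 overexpression against 29.8 RPKM in its control. Besides Lilrb4a, the genes of these lists were named after their values were seen, apart from Prkcb and Il1rap. Unlike the IgE receptor chains, Lilrb4a was higher in the KAI1 overexpression than in knockdown control replicate 1.

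The ST2 list gave smaller differences. Of its 15 genes, 12 were tested and limma called 0. At an unadjusted p below 0.05 it called 1, Sigirr, an inhibitory receptor of the family, against 3.32% of all entries. The knockdown pair lay below both controls in 1 (Map3k7), against 17% of all entries. It lay above both in 1 (Sigirr), against 21.5%, and the median difference was -0.12. In the overexpression 0 of 11 passed 2-fold in either direction, against 4.92% of entries higher and 5.21% lower, with a median of -0.09. Il1rap had the largest difference of the list in the knockdown (log2 difference -1.33, SE 1.10, limma adjusted p = 0.83) and lay under the filter in the overexpression arm. Like Fcer1a it passed the knockdown filter through control replicate 1 alone, and control replicate 2 lay below both knockdown libraries. Myd88, the adaptor on which ST2 depends, stood at 9.37 and 8.16 RPKM in the KAI1 knockdown against 9.22 and 9.23 RPKM in its controls, and at 7.64 RPKM in the KAI1 overexpression against 8.57 RPKM in its control. It was named after its values were seen, as a member that varied little while Il1rl1 varied widely.

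**Figure D4:**
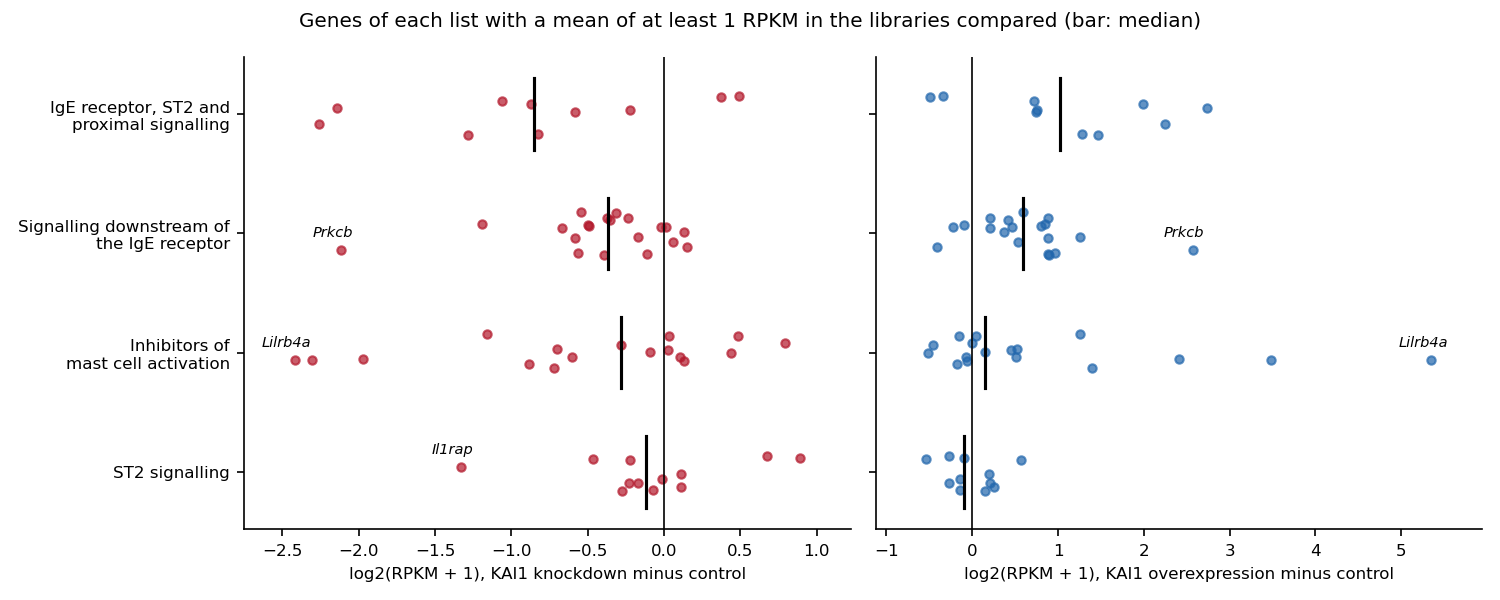
Difference in log2(RPKM + 1) (horizontal axis) of each gene with a mean of at least 1 RPKM in the libraries compared, for the 10 genes described here and the 3 pathway lists (rows), in the KAI1 knockdown minus its control (left) and the KAI1 overexpression minus its control (right); points are genes, scattered vertically for legibility, and black bars are medians. The medians run from -0.85 to -0.12 on the left and from 1.02 to -0.09 on the right, with Lilrb4a at 5.35 the most distant gene. Among the 10 genes, Fcer1a (both sides) and Ms4a2 (right) passed that filter through 1 library alone and enter the medians.

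The genes whose pattern over the 6 libraries was most like that of each receptor gene were found by the root mean square difference of log2(RPKM + 1) after centring, among 9803 entries. For Fcer1a they were the cytokine gene Lif (0.19) and the kallikrein gene Klk8 (0.25), against a median of 1.83 over all entries. Those of Ms4a2 were Ndrg1 (0.25) and the mast cell protease pseudogene Mcpt-ps1 (0.27), against a median of 1.55. Fcer1g was most like the ferritin heavy chain gene Fth1 (0.13) and Atf4 (0.13), against a median of 0.61, and Il1rl1 most like Dennd4a (0.09) and the vinculin gene Vcl (0.10), against a median of 1.01. The 6 points of each pattern share their libraries, so the likeness is a description.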

How the data were processed

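The authors deposited 1 table of RPKM per library, keyed by RefSeq accession and locus, as the file headers show (per the file headers). According to the submitters' processing notes, the build was mm9 and the tools were TopHat2 2.0.9, Bowtie and Cufflinks; settings, strandedness and the counting behind the RPKM are not given in the sources used here. Of 23170 entries, 24 repeated an accession and locus, and 23146 were used; RefSeq gave a symbol for 22840. No label says that replicates came from separate cultures; the p-values therefore reflect the spread of these libraries, which may be technical. The design had left the unit open as a value relative to length and depth.

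The knockdown was tested by limma 3.58.1 under R 4.3.3, which modelled log2(RPKM + 1) and let the variance follow a trend in the mean, over the 10113 entries whose mean reached 1 RPKM, two-sided, with Benjamini-Hochberg adjustment and a threshold of 0.05; the fit was tested on simulated data. The overexpression used a 2-fold size rule over 9936 entries. Depth was estimated from steps between low values, which gave 15 library pairs a relative depth, and from transcript lengths of 376 entries (18200000 reads in knockdown control replicate 1, quartiles 16300000 and 19200000). Whole reads were recovered for 5 of the 10 genes (Fcer1a, Ms4a2, Lat, Btk and Plcg2); no count test was run. The sequences are from RefSeq, GRCm38.p6, and 8 of the 10 genes had a window, 10 windows in all.

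Named by rule were the 10 members, the gene of largest difference per pathway list and arm, and 2 entries most like each receptor gene. Other named genes, among them Gata2, Fyn, Fcgr3, Fcgr1, Fgr, Src and Zap70, fall outside that rule, and not all are marked. The members and lists were chosen with earlier results of these data known. Alternatives were the pseudocount (0.1 and 5 RPKM), no filter, quantile and upper quartile scaling, a replicate block, a fit of all 6 libraries and leaving out each library.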

Additional observations from a re-analysis of the deposited data

How the results depend on the processing

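Limma called 3 entries in the knockdown, none of them among the 10 genes. It called 5 with a pseudocount of 0.1 RPKM, 0 with a pseudocount of 5 RPKM and 0 with no filter (334 and 683 at an unadjusted p below 0.05), and between 0 and 1045 when 1 library was left out, the highest without control replicate 2. With the replicate number as a replicate block it called 4, 0 of them among the 10 genes. The labels do not say what a number shares, and the deviations of same-numbered libraries had a correlation across genes of -0.08. Members below both controls numbered 4 (17% of all entries), and 4 to 8 with 1 library left out (25.7% to 41.3% of all entries). The highest of both came without control replicate 2. Quantile and upper quartile scaling added Il1rl1, for 5, where 16.6% and 19.3% of all entries lay below both controls. Without control replicate 1 the knockdown difference changed sign to 0.18 for Fcer1a, 0.17 for Lat and 0.17 for Lat2, where without control replicate 2 it was -4.47, -0.61 and -1.91. In the overexpression 5 genes passed 2-fold (4.92% of entries), and 4 with a pseudocount of 5 RPKM (2.75% of entries). With 5 RPKM Ms4a2 stood just under the line at a log2 ratio of 0.996, against 3.46 with 0.1 RPKM. The log2 ratio of Fcer1a was 4.38 with a pseudocount of 0.1 RPKM and 1.24 with 5 RPKM. Both genes passed the filter through the overexpression library alone, so their place in these counts is no support. Depth limits Fcer1a, with 6 reads or fewer in 4 libraries.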

Other observations

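Relatives of the members include Fc receptors for IgG. Fcgr3, an activating IgG receptor that signals through the Fcer1g chain, stood at 164 and 178 RPKM in the KAI1 knockdown against 275 and 200 RPKM in its controls, and at 154 RPKM in the KAI1 overexpression against 86.9 RPKM in its control. Fcgr2b, its inhibitory counterpart, counted above among the inhibitors, stood at 16.9 and 18.7 RPKM in the KAI1 knockdown against 63.5 and 26.3 RPKM in its controls, and at 35.9 RPKM in the KAI1 overexpression against 14.4 RPKM in its control. In both genes the knockdown libraries lay below both controls, as in 17% of all entries. Limma called neither (adjusted p = 0.83 for both). Fcgr1, another IgG receptor of the list, was low and overlapped, at 0.877 and 2.37 RPKM in the KAI1 knockdown against 0.448 and 1.76 RPKM in its controls. RNA of Fcgr3, an IgG receptor that uses the gamma chain, was therefore measured in all 6 libraries, including those with Fcer1a listed at 0. Ms4a3, a relative of Ms4a2 found in early myeloid cells, was lowest in knockdown control replicate 1 and highest in control replicate 2, at 12.6 and 12.4 RPKM in the KAI1 knockdown against 0.601 and 18.8 RPKM in its controls, and 3.39 RPKM in the KAI1 overexpression against 7.73 RPKM in its control. Fgr, Src and Zap70, which encode other kinases of the Src and Syk families, each stayed below 0.4 RPKM in every library. Fyn, a Src family kinase counted above among the downstream genes, ran from 11.4 to 28.2 RPKM over the 6 libraries.

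Irak1, a kinase downstream of MyD88, stood at 212 and 45.5 RPKM in the KAI1 knockdown against 53.2 and 52.1 RPKM in its controls, and at 283 RPKM in the KAI1 overexpression against 302 RPKM in its control. The 2 knockdown libraries differed more in Irak1 than the groups did, and the order of the libraries was not that of the IgE receptor genes. It was named after its values were seen.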
